A study of Danio rerio with 2 samples.

Results

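Strongly melanised cells were taken from single-cell transcriptomes of AB (WT) zebrafish embryos at 24 hpf (hours post fertilisation). They were defined as cells in which dct, pmela, tyrp1a and tyrp1b together held over 2% of the cell's unique molecular identifiers (UMIs, counts of single captured transcripts). The rule found 334 of 1347 cells. Of these, 49 were among the 348 cells of the ErbBi library and 285 were among the 999 cells of the untreated library. All cells had been sorted as carrying mitfa:GFP and crestin:mCherry, so both libraries share these reporters, strain and stage. ErbBi is read as an inhibitor of ErbB receptor signalling, and its dose and duration are not used here. The labels give no number of embryos behind a library. With 1 library per treatment, no difference between libraries has a replicate check, library and treatment cannot be told apart, and no test was run. The 4 genes chose the cells, so their levels, and the contrast with other cells, are descriptions.

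Melanoblasts are neural crest-derived precursors of the black pigment cells, which in zebrafish begin to darken at about this stage. Melanin is made from tyrosine by tyrosinase and tyrosinase-related proteins inside melanosomes, organelles built on Pmel fibrils and related to lysosomes. Mitfa is the transcription factor that directs this fate in zebrafish, and xanthoblasts, which make yellow pteridine pigments, arise from the same crest.

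The ErbBi library held 1113172 UMIs and the untreated library 7242348. Strongly melanised cells had a median of 3157 UMIs and 1363 genes in the ErbBi library, and 7732 UMIs and 2192 genes in the untreated library. The other cells had medians of 2714 and 6884 UMIs, so the gap in depth between libraries was present in both classes. The libraries shared 6 cell barcodes, each deeper in the ErbBi library, and 1 of these pairs was strongly melanised in both. In the 6 pairs the shallower cell had 18.6% to 20.4% of the deeper one's UMIs (median 19.3%). Before the authors' filter 75 barcodes were shared, 18 of them deeper in the ErbBi library, and 8 pairs were strongly melanised in both. The origin of shared barcodes was not tested. Without the 6 barcodes the strongly melanised share was 14.04% in the ErbBi library and 28.6% in the untreated library.

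With all cells, strongly melanised cells made up 14.1% of the ErbBi library (95% interval 10.6 to 18.2) and 28.5% of the untreated library (25.7 to 31.4). The intervals given here are at the 95% level and express the error of counting alone. The 4-gene share of a strongly melanised cell ran from 2.06% to 8.30% in the ErbBi library, with a median of 3.46%. For untreated cells it ran from 2.01% to 18.1%, with a median of 3.76%. Between 2% and 2.2% there were 3 ErbBi and 15 untreated cells, and between 1.8% and 2% there were 2 and 20. The ErbBi cells nearest the limit had 2.06% inside and 1.95% outside, and the untreated ones had 2.01% and 1.997%. Strongly melanised cells held 61.6% of the 4-gene UMIs of the ErbBi library and 75.02% of those of the untreated library.

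**Figure D1:**
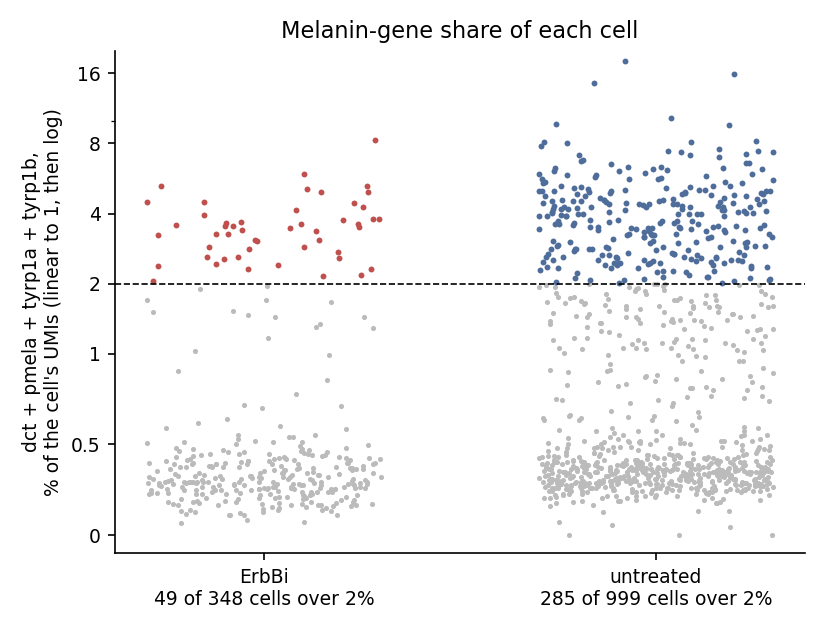
Each point is 1 cell, with the summed share of dct, pmela, tyrp1a and tyrp1b in its UMIs (percent, linear to 1 and logarithmic above) in the ErbBi and untreated libraries. Coloured points lie over the dashed limit of 2%, 49 of 348 ErbBi and 285 of 999 untreated cells, and grey points are the other cells, whose medians are 0.308% and 0.371%.

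Among the 4 chosen genes, tyrp1b, which encodes a tyrosinase-related protein, supplied 48.8% of the 4-gene UMIs of strongly melanised cells in the ErbBi library and 48.4% in the untreated library. Its paralogue tyrp1a supplied 7.15% and 7.56%. dct, encoding dopachrome tautomerase, supplied 27.3% and 29.1%, and pmela, encoding the melanosome fibril protein, supplied 16.8% and 14.97%. The division was close in both libraries. It was also similar in the other cells, where tyrp1b held 43.8% of ErbBi and 44.1% of untreated 4-gene UMIs. In cells with at least 3 UMIs of twist1a, DLX2 (ENSDARG00000079964) and PRRX1 (ENSDARG00000033971), markers of mesenchyme, and at most 1% in the 4 genes, the median 4-gene share was 0.292% in the ErbBi and 0.327% in the untreated library. How much of this low share is free RNA in the droplets was not tested. Between pairs of the 4 genes, Spearman's correlation of their shares across strongly melanised cells lay between 0.21 and 0.40 in the ErbBi library (49 cells) and between 0.49 and 0.65 in the untreated library (285 deeper cells). The cells behind a value share a library, differ in depth and were chosen by the sum of these 4 genes. The shares of a cell also have the same total, so the values are descriptions.

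Levels below are CPM, the UMIs of a gene summed over a class of cells per 1e6 UMIs of that class without the 4 chosen genes. A gene is called past the fold when its ratio is at least 2 (or at most 0.5), the interval of the ratio lies beyond 1.5-fold, and both classes together hold at least 30 UMIs. Against the other cells, 306 of 4112 genes were higher past the fold in the ErbBi library (7.44%) and 181 were lower (4.4%). Among untreated cells 689 of 8756 genes were higher (7.87%) and 1049 were lower (12%). Of 4098 genes measured in both, 219 were higher past the fold in both libraries, which is 71.6% of the ErbBi and 67.8% of the untreated calls among them. Another 145 were lower in both, 81.5% of the ErbBi and 23.6% of the untreated calls, and 0 were past the fold in opposite directions. The median log2 ratio over all genes was -0.12 in the ErbBi and -0.11 in the untreated library. A list whose share of genes past the fold lies near the shares over all genes is not set apart by its count.

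The melanoblast markers that the rule did not use were higher in strongly melanised cells. Of the 6 (tyr, oca2, slc45a2, slc24a5, MITF and KIT), 3 were past the fold in the ErbBi library (tyr, slc45a2 and MITF) and all 6 in the untreated library. The marker transcripts thus meet the name melanoblast, while pigment itself was not measured. tyr, encoding tyrosinase, had 507 CPM in strongly melanised and 72.9 CPM in other ErbBi cells, a ratio of 6.95 (4.97 to 9.73). Untreated cells had 401 and 89.1 CPM, a ratio of 4.5 (4.01 to 5.06). slc45a2, a melanosome transporter gene, had 1602.5 and 218 CPM in the ErbBi library (ratio 7.36, 6.10 to 8.89) and 1875 and 376 CPM in the untreated library (ratio 4.99, 4.72 to 5.27). For both genes the class difference had the same direction in the libraries.

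oca2, which encodes a melanosomal ion channel, had 95.01 and 33.8 CPM in strongly melanised and other ErbBi cells (ratio 2.81, 1.41 to 5.34, on 15 and 32 UMIs). Its untreated values were 84.7 and 18.6 CPM (ratio 4.55, 3.52 to 5.92). slc24a5, a cation exchanger gene named for the golden mutant, had a ratio of 1.86 (1.1 to 3.03) in the ErbBi and 3.73 (3.13 to 4.45) in the untreated library. Its relative SLC24A4 (ENSDARG00000015425) had 5.36 (2.62 to 10.9) and 4.77 (3.83 to 5.95). Over the whole melanin synthesis list, 5 of 9 genes measured in the ErbBi library and 8 of 12 in the untreated library were higher past the fold, with median log2 ratios of 1.61 and 1.69. gpnmb, which in zebrafish marks iridophores among other cells, was the 1 gene lower past the fold, at 3.96 CPM against 13.9 CPM in other untreated cells (8 and 71 UMIs). The channel gene trpm1b had ratios of 2.1 in the ErbBi and 1.41 in the untreated library, not past the fold.

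tyr UMIs were also found in more strongly melanised cells after each cell was thinned to 1900 UMIs, which left out 7 ErbBi and 13 untreated strongly melanised cells and 61 and 40 other cells. tyr was seen in 22 of 42 ErbBi (52.4%) and 130 of 272 untreated cells (47.8%), against 14.7% and 13.6% of other cells. In the mesenchyme-marked cells, taken as the background of a tissue that should lack it, tyr was seen in 12.3% of ErbBi and 7.48% of untreated cells. Without thinning, tyr was seen in 75.5% and 86.3% of strongly melanised cells and in 21.8% and 37.3% of mesenchyme-marked cells, at median depths of 3157 and 7732 UMIs against 3629 and 9669 UMIs. slc45a2, treated the same way, was seen in 95.2% of ErbBi and 97.1% of untreated strongly melanised cells (98.0% and 99.6% unthinned), against 17.7% and 25.2% of mesenchyme-marked cells (39.4% and 71.8% unthinned).

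Genes for building and moving melanosomes were also higher in part. Of this list, 8 of 18 measured genes were higher past the fold in the ErbBi library and 10 of 30 in the untreated library, with median log2 ratios of 1.44 and 0.83. MLPH (ENSDARG00000070991), the melanophilin gene whose product links melanosomes to myosin, had 139 and 22.2 CPM in strongly melanised and other ErbBi cells, and 196 and 34.8 CPM in untreated ones. cd63, encoding a tetraspanin that helps sort Pmel in mammalian melanosomes, had ratios of 2.45 (1.65 to 3.57) and 4.2 (3.76 to 4.70). mlphb, the other melanophilin gene, had 2 and 10 UMIs in strongly melanised and other ErbBi cells, and 8 and 99 in untreated ones, where it was lower past the fold (ratio 0.204, 0.0859 to 0.419).

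The vacuolar proton pump, which acidifies lysosomes and early melanosomes, was higher in most of its subunit genes. Past the fold were 13 of 17 measured genes in the ErbBi and 17 of 20 in the untreated library, and every measured gene had a ratio above 1. Summed over its 24 gene rows, the list reached 10799.5 CPM in strongly melanised ErbBi cells and 4790 CPM in other ErbBi cells. The untreated sums were 12412 and 6067 CPM. Per cell the list's level in strongly melanised cells ran from 6944 to 17123 CPM (median 10910) in the ErbBi and from 6835 to 23351 CPM (median 12425) in the untreated library. The membrane subunit gene ATP6V0A2 (ENSDARG00000035565) had the largest ratios named by rule, 6.22 (3.49 to 11.1) and 4.98 (4.16 to 5.97). ATP6V0C (ENSDARG00000057853), encoding the proteolipid ring, had 4.34 and 3.49. The measured genes that were not past the fold numbered 4 in the ErbBi and 3 in the untreated library. Among them was atp6v0e1, at 2641 and 2517 CPM in strongly melanised and other ErbBi cells and 2759 and 2426 CPM in untreated ones, with ratios of 1.05 (0.943 to 1.17) and 1.14 (1.1 to 1.17).

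**Figure D2:**
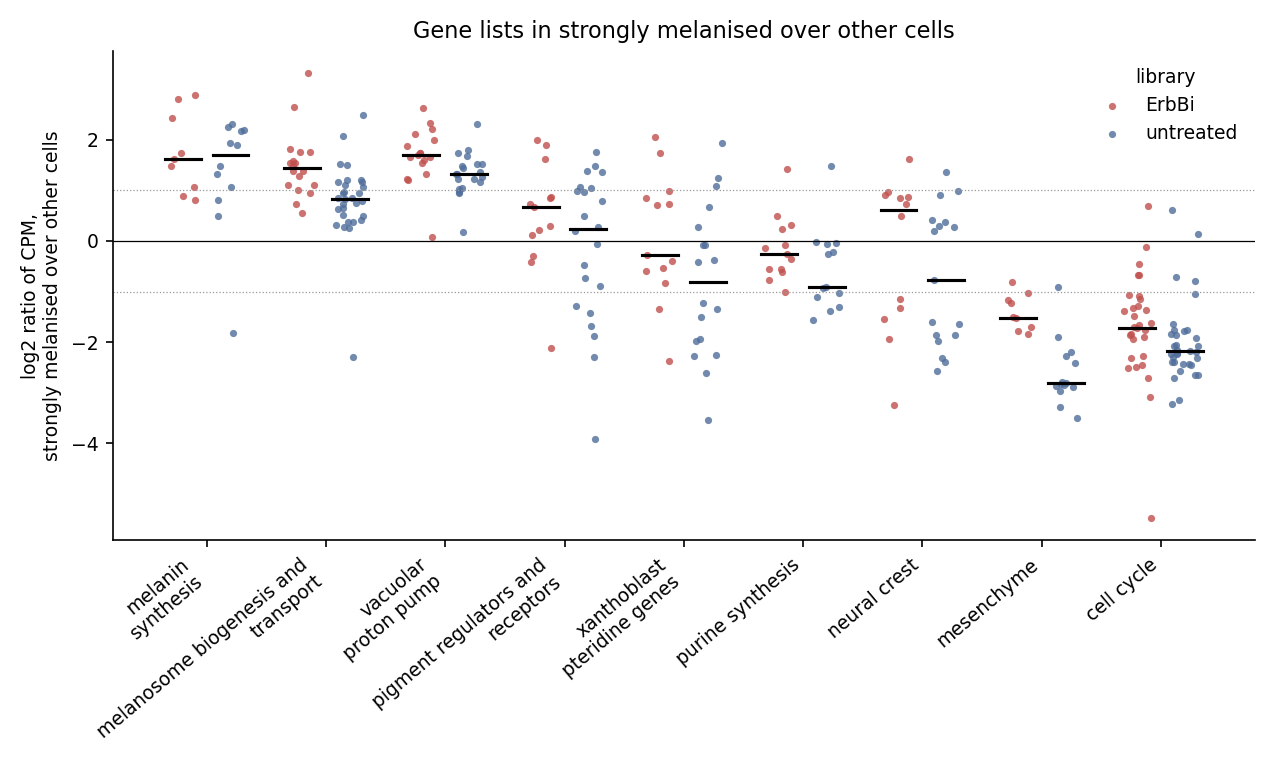
Each point is 1 gene of a list, at its log2 ratio of CPM in strongly melanised over other cells, in the ErbBi (red) and untreated (blue) libraries, with black bars at the medians and dotted lines at 2-fold. Genes with at least 30 UMIs are drawn and those at 0 in a class are left out. Melanin, melanosome and proton pump genes lie mostly above 0 and mesenchyme and cell cycle genes mostly below.

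Among pigment regulators and receptors, 3 of 13 measured genes were higher past the fold in the ErbBi library and 0 lower, and 5 of 22 were higher and 4 lower in the untreated library. The shares over all genes were 7.44% higher and 4.4% lower in the ErbBi library, and 7.87% and 12% in the untreated library. MITF (ENSDARG00000003732), a row to which the name table gives no zebrafish paralogue letter, had 728 and 238 CPM in strongly melanised and other ErbBi cells (ratio 3.06, 2.43 to 3.85). Its untreated values were 1024 and 489 CPM (2.09, 1.97 to 2.22). TBX2 (ENSDARG00000018025), a T-box factor gene, had 3.99 (2.15 to 7.27) and 3.39 (2.88 to 3.99). A second TBX2 row (ENSDARG00000006120) had 2 and 52 UMIs in strongly melanised and other ErbBi cells, and 8 and 99 in untreated ones, where it was lower past the fold (ratio 0.204). KIT (ENSDARG00000043317), the receptor gene needed for melanoblast migration and survival, had ratios of 1.60 (0.633 to 3.57) and 2.07 (1.51 to 2.83). ZEB2 (ENSDARG00000078416) had 0 UMIs in strongly melanised and 10 in other ErbBi cells, and 1 and 38 in untreated ones.

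Genes of the yellow pigment pathway were split in the untreated library. Of the xanthoblast pteridine list, 2 of 13 measured genes were higher and 1 lower past the fold in the ErbBi library, and 3 of 18 were higher and 8 lower in the untreated library. Over all genes, 7.44% were higher and 4.4% lower in the ErbBi library, and 7.87% and 12% in the untreated library. With 13 genes measured, the ErbBi counts are too small to set the list apart from these shares. The higher ones in the untreated library were SPR (ENSDARG00000004406), QDPR (ENSDARG00000040190) and pcbd1, which make or recycle tetrahydrobiopterin, the cofactor of aromatic amino acid hydroxylases. SPR, encoding sepiapterin reductase, had 95.01 and 8.46 CPM in strongly melanised and other ErbBi cells (15 and 8 UMIs, under the 30 needed) and 64.4 and 16.8 CPM in untreated ones (ratio 3.83, 2.89 to 5.08). QDPR had ratios of 4.18 (3.60 to 4.84) and 2.39 (2.28 to 2.5). xdh, for xanthine dehydrogenase, had 0 UMIs in strongly melanised and 5 in other ErbBi cells, and 2 and 59 in untreated ones. PAX7 (ENSDARG00000100398), a xanthoblast factor gene, had ratios of 0.192 (0.0514 to 0.503) in the ErbBi and 0.164 (0.128 to 0.207) in the untreated library. gch2, the first enzyme gene of the pathway, had 3528 and 4644 CPM in strongly melanised and other ErbBi cells, and 4127 and 10465 CPM in untreated ones. These sums over the other cells include the 19 ErbBi and 125 untreated cells rich in gch2. Per cell the direction was the opposite, with a median gch2 share of 0.276% in strongly melanised and 0.186% in other ErbBi cells, and 0.360% and 0.216% in untreated ones. The whole pteridine list likewise had a per-cell median of 8333 CPM in strongly melanised and 3366 CPM in other ErbBi cells, and 10280 and 6576 CPM in untreated ones.

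No strongly melanised cell had over 2% of its UMIs in gch2, the highest value being 1.64% in the ErbBi and 1.77% in the untreated library, although 19 ErbBi and 125 untreated cells passed that level. Purine synthesis genes, which feed both pteridine and guanine pigments, had 0 of 13 measured genes past the fold in either direction in the ErbBi library. Untreated cells had 1 of 13 higher and 5 lower. Over all genes, 7.44% were higher and 4.4% lower in the ErbBi library, and 7.87% and 12% in the untreated library. The 1 higher untreated gene thus lay near the share over all genes. atic and paics, enzymes of the later steps, had ErbBi ratios of 0.499 (0.252 to 0.899) and 0.679 (0.507 to 0.894), and untreated ratios of 0.337 (0.286 to 0.397) and 0.381 (0.352 to 0.412). adss1 was the higher one, at 2.66 (1.23 to 5.44) in the ErbBi library, not past the fold, and 2.81 (2.32 to 3.41) in the untreated library. Of the iridoblast list, 1 of 3 measured genes was higher in the ErbBi library, and 2 of 6 were higher and 3 lower in the untreated library. pnp4a, a purine nucleoside phosphorylase gene used to mark iridophores, was higher past the fold in both libraries, at 3.80 (3.23 to 4.47) and 2.89 (2.74 to 3.04). ALX4 (ENSDARG00000088332), a gene of that fate, had 1 and 29 UMIs in strongly melanised and other ErbBi cells and 12 and 336 UMIs in untreated ones.

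Most measured cell cycle genes had lower levels in strongly melanised than in other cells of both libraries. A ratio above 1 was found for 1 of 32 in the ErbBi and 2 of 34 in the untreated library. Of the list, 15 of 32 measured genes were lower past the fold in the ErbBi library and 30 of 34 in the untreated library, 0 were higher in either, and the median log2 ratios were -1.71 and -2.18. The summed list had 4592 CPM in strongly melanised and 12487 CPM in other ErbBi cells, and 3094 and 9223 CPM in untreated ones. RRM2 (ENSDARG00000020711), a subunit of the enzyme that makes deoxynucleotides, had 1 UMI in strongly melanised and 267 in other ErbBi cells, and 38 and 893 UMIs in the untreated library (ratio 0.108, 0.0757 to 0.149). Its second row (ENSDARG00000078069) had ratios of 0.118 and 0.113. pcna, the replication clamp gene, had ratios of 0.399 (0.288 to 0.540) in the ErbBi and 0.190 (0.163 to 0.219) in the untreated library. The inhibitor genes CDKN1B (ENSDARG00000054271) and cdkn1ca were not past the fold, with ErbBi ratios of 0.922 and 1.62 and untreated ratios of 1.095 (0.910 to 1.31) and 1.54 (1.42 to 1.66).

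Neural crest genes were mixed. Of those measured, 1 of 12 was higher and 3 were lower past the fold in the ErbBi library, against 1 of 17 higher and 8 lower in the untreated library. Over all genes, 7.44% were higher and 4.4% lower in the ErbBi library, and 7.87% and 12% in the untreated library. The counts of higher crest genes lay near these shares and those of lower ones above them. The list's median log2 ratios had opposite signs, 0.62 in the ErbBi and -0.78 in the untreated library. Its summed level was 2971 CPM in strongly melanised and 2312 CPM in other ErbBi cells, and 2846 and 2692 CPM in untreated ones. Per-cell medians of the list were 2959 and 2067 CPM in ErbBi cells, and 2782.5 and 2468 CPM in untreated ones. tfap2c, an AP-2 factor gene, had ratios of 2.11, on 23 UMIs, in the ErbBi and 2.57 (2.02 to 3.26) in the untreated library. tfap2a had 1.66 and 1.98 (1.82 to 2.16), not past the fold in either. The cadherin gene cdh6 had 0.260 (0.137 to 0.451) and 0.190 (0.137 to 0.259). ZIC2 (ENSDARG00000037178) had 2 and 11 UMIs in strongly melanised and other ErbBi cells, and 5 and 75 in untreated ones. The reporter transcripts differed. EGFP had 329 and 670 CPM in strongly melanised and other ErbBi cells (ratio 0.491, 0.363 to 0.653) and 240 and 1206 CPM in untreated ones (0.199, 0.181 to 0.219). mCherry had ratios of 0.908 (0.416 to 1.78) and 0.845 (0.715 to 0.995), not past the fold.

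Markers of other cell types were mostly lower in strongly melanised cells of the untreated library, and fewer could be measured in the ErbBi library. Over all genes, 4.4% were lower past the fold in the ErbBi and 12% in the untreated library, and 7.44% and 7.87% were higher. The mesenchyme list had 3 of 11 measured genes lower past the fold in the ErbBi library and 13 of 14 in the untreated library, with none higher. Its untreated extremes were foxc1b, at 2 and 57 UMIs, col5a1, at 2 and 49 UMIs, and VIM (ENSDARG00000010008), at a ratio of 0.532 that was not past the fold. Of the neural tube and neuron list, 1 of 7 was lower in the ErbBi library, and in the untreated library 11 of 14 were lower and 1, gap43, was higher. Of the epidermis list, 2 of 5 and 6 of 10 were lower in the ErbBi and untreated libraries, and ANXA1 (ENSDARG00000026726), an annexin gene on that list, was higher in both. The ErbBi library had 0 of 3 Schwann precursor, 0 of 1 muscle and 1 of 2 macrophage genes lower, and no erythroid gene reached 30 UMIs. Among untreated cells, muscle and erythroid genes had 3 of 8 and 3 of 4 lower, macrophage genes 1 of 2 and Schwann precursor genes 1 of 5, with 0 higher. Single cells carry part of these levels. Of the other untreated cells' UMIs, 1 cell held 94.2% for the erythroid and 55.4% for the muscle list, and 1 other ErbBi cell held 65.4% for the macrophage list. The median other cell had 0 UMIs of each of these lists. For the epidermis list, 1 cell held 20.6% of the other ErbBi and 19.1% of the other untreated cells' UMIs. Per cell, the median level of the epidermis list was higher in strongly melanised cells of both libraries. It was 514 CPM against 407 CPM in other ErbBi cells, and 420 CPM against 320 CPM in untreated ones. Of the hox genes of groups 1 to 4, 1 of 7 was lower in the ErbBi and 6 of 9 in the untreated library. Of groups 5 to 13 none had 30 UMIs in the ErbBi library and 7 of 15 were lower in the untreated library, with 0 higher in either group.

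Of the lipid and annexin list, 2 of 9 measured genes were higher past the fold in the ErbBi library. In the untreated library 3 of 11 were higher and 1 was lower. A ratio above 1 was found for 8 of the 9 and 7 of the 11, with median log2 ratios of 0.53 and 0.055. ANXA1 had 165 and 11.6 CPM in strongly melanised and other ErbBi cells (ratio 14.2, 6.76 to 31.8) and 261 and 43.1 CPM in untreated ones (6.05, 5.16 to 7.11). ANXA2 (ENSDARG00000003216) had ratios of 5.49 (2.94 to 10.2) and 5.0 (4.34 to 5.77). hspa5, the endoplasmic reticulum chaperone gene, had 1115 and 282 CPM in the ErbBi library (3.95, 3.25 to 4.8) and 920 and 288 CPM in the untreated library (3.19, 2.98 to 3.42). GADD45A (ENSDARG00000043581), a stress-response gene, had 4.10 and 2.85. Of the immediate early and stress list, 4 of 10 measured genes were higher past the fold in the ErbBi and 2 of 19 in the untreated library. Its median log2 ratios were 1.05 and 0.36. Over all measured genes, 7.44% were higher past the fold in the ErbBi and 7.87% in the untreated library. In the adhesion and matrix list, 1 gene was higher in both libraries, cdh1, the E-cadherin gene, at 4.42 (2.61 to 7.39) and 2.30 (1.97 to 2.69). Of that list's measured genes, 2 of 14 were lower in the ErbBi and 9 of 29 in the untreated library. Over all measured genes, 4.4% were lower past the fold in the ErbBi and 12% in the untreated library. The count of 1 higher gene lay near or below the shares of higher genes.

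Ranked by ratio over all genes of the untreated library, the leading gene with over 1000 UMIs was STC2 (ENSDARG00000056680), encoding the secreted glycoprotein stanniocalcin. It had 51 and 31 UMIs in strongly melanised and other ErbBi cells (323 and 32.8 CPM, ratio 9.86, 6.19 to 15.9). Untreated cells had 1015 and 262 UMIs (503 and 51.3 CPM, 9.80, 8.55 to 11.3), so the ratios were alike. The gene row ENSDARG00000114387, which has no name in the table used, had 646 and 52.9 CPM in the ErbBi library (12.2) and 342 and 39.7 CPM in the untreated library (8.61). The other leaders were rarer. piwil1, known in zebrafish for germline piRNA pathways, had 32 and 5 UMIs, mlip 32 and 6, slc22a2, an organic cation transporter gene, 71 and 16, and carmil2 30 and 7. The amino acid transporter gene SLC7A8 (ENSDARG00000075831) had 111 and 30 UMIs, RAP1GAP (ENSDARG00000056554), encoding an activator of Rap GTP hydrolysis, 60 and 17, slc6a17 53 and 16, and EFNA3 (ENSDARG00000098295), an ephrin gene, 36 and 10. NCEH1 (ENSDARG00000020427) and ENSDARG00000092143 completed the 12, with 29 and 7 and with 40 and 10 UMIs. In the ErbBi library 8 of these 12 genes, those other than STC2, ENSDARG00000114387, SLC7A8 and slc6a17, had at most 12 UMIs over both classes, so their ErbBi ratios are loose.

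The 12 genes ranked lowest by ratio had 1 to 3 UMIs each in strongly melanised untreated cells. Genes without UMIs there were ranked as if they had 3 counts, so they can fall behind genes with 1 UMI. mmp2, a matrix protease gene, had 1 and 92 UMIs (ratio 0.0275, 0.000689 to 0.157), the mesenchymal cadherin gene cdh11 had 1 and 77, and cntn1a, a neural adhesion gene, had 3 and 172. The mitosis genes ncapd3, a condensin subunit, and haus3, of the augmin complex, had 1 and 51 and 1 and 48 UMIs. g2e3, si:dkey-68o6.5, si:dkey-25o16.4, zgc:85936, ATCAY (ENSDARG00000071678), ENSDARG00000106873 and znf488 had 1 UMI each against 53 to 88 in other untreated cells. These 12 genes had 0 to 4 UMIs in strongly melanised ErbBi cells, so their ErbBi ratios are loose. mmp2 had 4 and 47 UMIs there (ratio 0.510, 0.133 to 1.39, not past the fold) and si:dkey-25o16.4 had 2 and 13 (0.922, 0.101 to 4.07).

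Cells were next ordered by their 4-gene share. In the untreated library the proton pump list had 5067 CPM in cells of at most 0.5%, then 7688 at 0.5 to 1%, 9181 at 1 to 2%, 11339 at 2 to 4%, 13487 at 4 to 8% and 16319 over 8%, where there were 10 cells. slc45a2 had 198, 612, 973, 1558, 2150 and 4060 CPM over the same steps, and STC2 had 30.04, 60.7, 138, 353, 628 and 1661 CPM. MITF levelled off, with 359, 686, 906, 1008, 1042 and 1028 CPM. EGFP and the cell cycle list were lower at higher shares, EGFP with 1367 CPM at the low end, 138 CPM at 4 to 8% and 237 CPM over 8%, and the cell cycle list with 10665, 2858 and 2953 CPM. The steps are cut from the share that chose the cells and each pools cells of 1 library, so these values are a description. In the ErbBi library, with 37 cells at 2 to 4% and 11 at 4 to 8%, STC2 had 293 (204 to 407) and 435 CPM (249 to 707), slc45a2 1538 (1324 to 1777) and 1714 CPM (1317 to 2193), and EGFP 343 (246 to 465) and 272 CPM (130 to 500.4), each with overlapping intervals. The median depth of untreated cells was 7462 UMIs at 2 to 4% and 8402 at 4 to 8%.

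**Figure D3:**
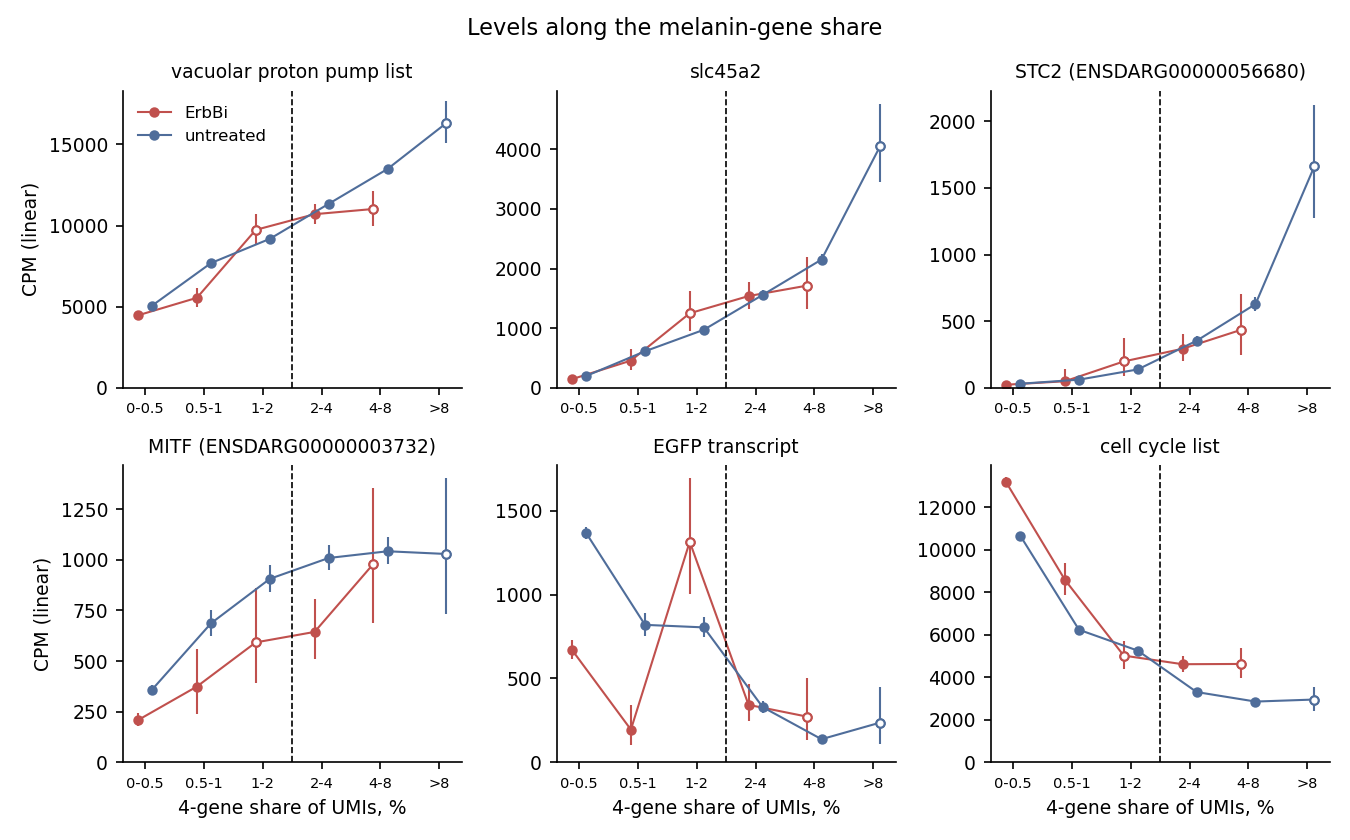
Summed CPM (linear axes, vertical bars are exact Poisson 95% intervals) of 2 gene lists and 4 transcripts along steps of the 4-gene share, in the ErbBi (red) and untreated (blue) libraries. Open symbols mark steps of under 20 cells, steps under 10 cells are not drawn, and the dashed line is the limit of 2%; the proton pump, slc45a2 and STC2 go up to the right, and the cell cycle list goes down.

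The most similar cells were the moderately melanised ones, with over 1% and at most 2% in the 4 genes, of which there were 15 in the ErbBi and 119 in the untreated library. In the untreated library 65 of 5884 genes were higher past the fold in strongly than in moderately melanised cells (1.1%) and 90 were lower (1.53%). Among ErbBi cells 3 of 1060 were higher (0.283%) and 2 lower (0.189%). Of 30 measured cell cycle genes, 17 were among the 90 lower ones, and dnmt1, hells, lig1, top2a and ctcf, of DNA methylation, chromatin and replication, had the lowest ratios by rule, at 0.185 (0.0782 to 0.407) for dnmt1 and 0.203 (0.126 to 0.323) for hells. EGFP had a ratio of 0.299 (0.265 to 0.336). The highest were ocstamp, at 52 and 1 UMIs, and DNAJB9 (ENSDARG00000016886), an endoplasmic reticulum co-chaperone gene, at 52 and 2, followed by RAP1GAP, ENSDARG00000092143 and slc22a2. ocstamp had 0 UMIs in strongly melanised ErbBi cells. In the untreated library, proton pump genes had 0 of 20 past the fold, all with ratios above 1 and a median log2 ratio of 0.47. The median over all genes was 0.02. Of melanin synthesis genes 1 of 10 was higher past the fold (median log2 ratio 0.82), and of melanosome genes 1 of 28 (0.25). Pigment regulators had 0 of 16 higher and 1 lower (0.12). Few genes of these lists were thus past the fold, as was so over all genes, but each list median lay above that of all genes. All 10 measured melanin synthesis genes had a ratio above 1.

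Against gch2-rich cells, which hold much of the first pteridine enzyme's transcript (over 2% of UMIs in gch2 and at most 2% in the 4 genes, 19 ErbBi and 125 untreated cells), 412 of 5706 genes were higher past the fold in strongly melanised untreated cells (7.22%) and 191 were lower (3.35%). Among ErbBi cells 35 of 1113 were higher (3.14%) and 34 lower (3.05%). The gch2-rich cells were chosen by gch2, so the lower pteridine genes, 11 of 16 in the untreated library, follow that choice in part. xdh had 2 and 37 UMIs, zgc:113337 2 and 46, zgc:113142 2 and 41, plin6, a lipid droplet gene, 13 and 199, and ATCAY 1 and 39. Purine synthesis genes had 10 of 13 lower. STC2 led the higher genes, with 503 and 13.6 CPM (ratio 36.9, 19.98 to 77.2), followed by zgc:154093, KANK1 (ENSDARG00000060102), epdl1 and vopp1a, with 56 to 81 UMIs in strongly melanised and 1 each in gch2-rich cells. MITF was higher too, at 2.16 (1.93 to 2.43), as were 6 of 15 measured pigment regulators, while sox10, a crest factor gene named after its values were seen, had 1.11 (0.967 to 1.28). Of the proton pump 4 of 20 genes were higher past the fold and all had ratios above 1.

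Between the libraries, few genes of strongly melanised cells were past the fold. Of 5207 genes, 88 were higher past the fold in ErbBi than in untreated strongly melanised cells (1.69%) and 7 were lower (0.134%), and the median log2 ratio was 0.03. None of 10 melanin synthesis, 26 melanosome and 20 proton pump genes measured was past the fold in either direction, at unequal depths that limit what could be seen, with median log2 ratios of -0.16, -0.12 and -0.22. tyr had 507 CPM in ErbBi and 401 CPM in untreated strongly melanised cells (ratio 1.26, 0.992 to 1.59). slc45a2 had 1602.5 and 1875 CPM (0.855, 0.750 to 0.971), MITF had 728 and 1024 CPM (0.711, 0.584 to 0.859), and STC2 had 323 and 503 CPM. The MITF ratio in other cells was 0.486 (0.422 to 0.557).

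The higher genes in ErbBi strongly melanised cells were led by mesenchyme genes. twist1a, encoding a transcription factor of cranial mesenchyme, had 431 CPM (68 UMIs in 35 of 49 cells) in ErbBi and 36.2 CPM (73 UMIs in 65 of 285 cells) in untreated strongly melanised cells, a ratio of 11.9 (8.43 to 16.8). After thinning it was seen in 54.8% and 8.09% of cells, and without thinning in 71.4% and 22.8%. The thinned share in other cells was 60.9% in the ErbBi and 18.8% in the untreated library, and unthinned gch2-rich cells with a UMI were 11 of 19 and 27 of 125. The twist1a shares of strongly melanised cells lay below those of other cells in both libraries after thinning, with overlapping intervals in the ErbBi library. DLX2 (ENSDARG00000079964), a homeobox gene of the same tissue, had 152 and 18.3 CPM (8.29, 4.75 to 14.2). The same genes were higher in ErbBi cells of other kinds. In gch2-rich cells twist1a had 291 CPM in the ErbBi and 57.2 CPM in the untreated library, and in all other cells 873 and 252 CPM (ratio 3.47, 3.17 to 3.79). Of the 19 rows of the mesenchyme list, 12 had a UMI in ErbBi strongly melanised cells (163602 UMIs) and 19 in untreated ones (2105277 UMIs). Those at 0 in the ErbBi cells were twist1b, dlx5a, dlx6a, barx1, twist2, a second DLX2 row (ENSDARG00000017174) and VIM (ENSDARG00000044501). In other ErbBi cells dlx5a had 106 UMIs. The list's summed level ran from 0 to 1819 CPM per cell (median 707) in ErbBi and from 0 to 1168 CPM (median 61.4) in untreated strongly melanised cells. twist1a made 56.2% of the list's UMIs in strongly melanised and 45.0% in other ErbBi cells. The mesenchyme-marked cells numbered 142 of 348 in the ErbBi and 110 of 999 in the untreated library, and the part that their free RNA has in these values was not tested.

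Of the other leading genes, 5 were also higher in other ErbBi cells. They were ENSDARG00000116076, ENSDARG00000111460, septin12, the somatostatin gene sst1.2 and FBN3 (ENSDARG00000098237), a fibrillin gene, at 7.31 to 11.7-fold in strongly melanised and 2.32 to 8.85-fold in other cells. Of the 87 higher genes measured in both classes, 84 had a ratio above 1 in other cells and 35 were past the fold there, where 404 of 8549 genes were higher (4.73%) and 152 lower (1.78%). No gene was past the fold in opposite directions in the classes.

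Of 24 measured cell cycle genes, 6 were higher past the fold in ErbBi strongly melanised cells. They were pcna, mcm2, MCM3 (ENSDARG00000024204), mcm5, MCM6 (ENSDARG00000057683) and STMN1 (ENSDARG00000004169). Of the 24, 22 had a ratio above 1 and the median log2 ratio was 0.69. In other cells 2 of 34 were higher past the fold, 30 had a ratio above 1 and the median was 0.41. pcna had 285 and 98.1 CPM in ErbBi and untreated strongly melanised cells, a ratio of 2.91 (2.05 to 4.03), and 715 and 517 CPM in other cells, a ratio of 1.38 (1.27 to 1.51). After thinning, pcna was seen in 40.5% of ErbBi and 14.3% of untreated strongly melanised cells (63.3% and 43.2% unthinned), against 78.5% and 66.4% of mesenchyme-marked cells. mcm2, a replication helicase gene, had a ratio of 3.95 in strongly melanised and 1.64 in other cells. In ErbBi gch2-rich cells pcna had 377 CPM and in untreated ones 343 CPM. Whether free RNA from the mesenchyme-marked cells, in which pcna had 835 CPM in the ErbBi and 866 CPM in the untreated library, takes part was not tested.

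All 7 lower genes had 0 to 14 UMIs in the 49 ErbBi cells. si:ch211-11c3.9, a gene with no described product in the name table, had 88.7 CPM in ErbBi and 868 CPM in untreated strongly melanised cells (9.79-fold lower, ratio 0.102, 0.0557 to 0.172), and in other cells its ratio was 0.435 (0.384 to 0.491). adam8a, a metalloprotease gene, had 1 and 126 UMIs (0.101, 0.00255 to 0.576), with 14 and 135 UMIs and a ratio of 0.560 (0.298 to 0.973) in other cells. fabp4a, a fatty acid binding protein gene, had 3 and 220 UMIs, and psen2, encoding a presenilin, 11 and 415. HBE1 (ENSDARG00000087390), a globin gene, had 1 and 142 UMIs, and hbae3, another globin gene, had 0 and 86, at least 2.24-fold lower with the ErbBi class set to a floor of 3 counts. The 8 rows of the erythroid list were all at 0 in ErbBi strongly melanised cells and summed to 133 UMIs in 103 of the 285 untreated ones (0 to 1002 CPM per cell). In other untreated cells the list had 4718 UMIs, of which 94.2% lay in 1 cell, and their part in the globin values was not tested.

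**Figure D4:**
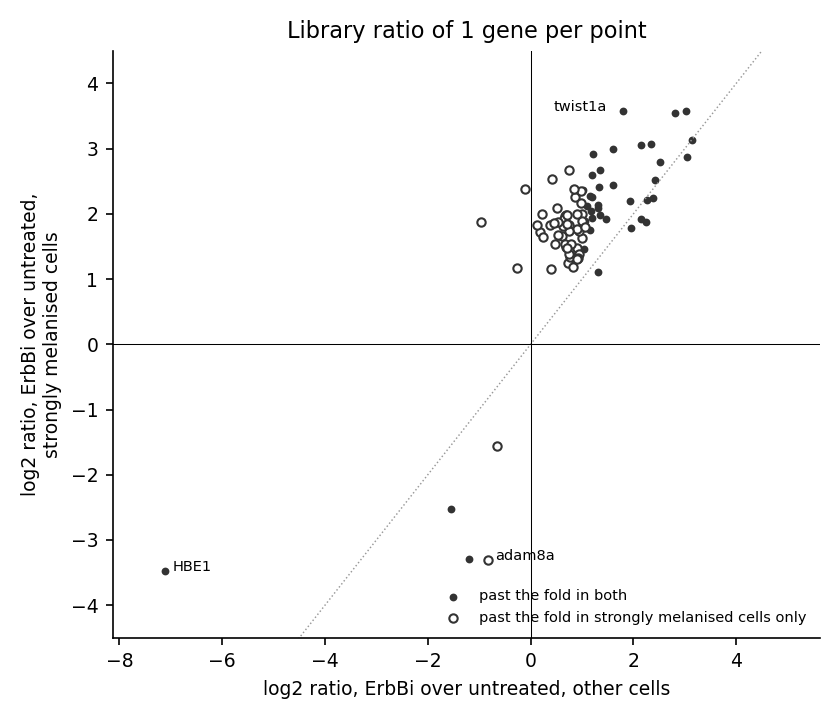
Each point is 1 of the genes past the fold between ErbBi and untreated strongly melanised cells, at its log2 ratio there (vertical) and in the other cells (horizontal), with the dotted line at equal ratios. Genes with 0 UMIs in a class, such as hbae3, are not drawn. Filled points are past the fold in both classes, and most points lie right of 0, twist1a with 11.9-fold in strongly melanised and 3.47-fold in other cells.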

How the data were processed

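The deposited values are whole UMI counts per gene and cell in an unfiltered and a filtered table. Per the submitters' processing notes, Cell Ranger 2.1.1, FastQC 0.11.7 and the build GRCz11 were used; other settings are not given in the sources used here. Per the labels, libraries came from 10x 3' version 2 chemistry. The filtered table kept cells with at least 701 genes, those left out had at most 699, and 0 values differed between the tables. A cell's library was read from the number ending its name, which matches the number ending a sample title.

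The members, lists and rules were chosen with earlier results of these data known. Named genes were the 4 chosen genes, the melanoblast markers, the extremes of each list in the untreated library, the 12 highest and lowest ratios over other cells, the 8 highest and lowest between libraries, and the 5 highest and lowest over moderately melanised and gch2-rich cells. Ratios over other cells had to lie on the same side of 1 in the ErbBi library, and no cell was to hold over 20% of a ranked gene's UMIs. Other genes named were chosen after their values were seen. Of 402 list names, 22 found no gene row. A human-style symbol is printed as a zebrafish name where only 1 such name could be meant, as for tyr and slc45a2. The others are given with their Ensembl ID at least once, since the paralogue is open. UMIs of near-identical paralogues may have been divided by the authors' counting. No coordinates or sequences are used here. Some genes that met the rule are not reported here.

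Counts were summed per class, with the 4 genes left out of the total. CPM has exact Poisson, shares exact Clopper-Pearson and ratios exact conditional binomial 95% intervals. They cover counting error only. For a class without UMIs, 3 counts served as floor, also in the rankings by ratio. Cells under 1900 UMIs (121 in all) were left out of thinned shares. Doublets, called with Scrublet in scanpy 1.11.5 (6 ErbBi and 6 untreated cells, 0 and 1 strongly melanised), stayed in. The ratio code was tested on simulated data over 18723 genes: for strongly melanised over other untreated cells, 199 of 200 genes changed 4-fold were recovered and 2 of 8567 unchanged genes were called. For the same contrast in ErbBi cells these were 200 of 200 and 9 of 3926, and between libraries in strongly melanised cells 199 of 200 and 5 of 4977. The simulated class sums were Poisson draws without variation between cells or libraries. They check the code and give no error rate for the real cells. Alternatives covered thresholds, denominators, weighting, count minimums, filtering, doublets and thinning; those without shared barcodes were added after seeing the data.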

Additional observations from a re-analysis of the deposited data

Results flagged for a closer look

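Strongly melanised cells were also found among the cells that the authors left out for having few genes, which the comparisons above do not use. In the ErbBi library 13 of 149 such cells passed the 2% limit (8.72%, 4.73 to 14.5), at a median of 590 UMIs over the cells left out, and in the untreated library 3 of 23 did (13.04%, 2.78 to 33.6). Of the 13 ErbBi cells, 8 had a barcode that was also in the untreated library, as had 57 of the 149 cells left out. Without shared barcodes the shares were 5 of 92 ErbBi cells (5.43%, 1.79 to 12.2) and 3 of 10 untreated cells. The part of shared barcodes in these cells was not tested.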

How the results depend on the processing

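No paired analysis was possible because a single library stands for a treatment, and leaving out a replicate was not possible either. The strongly melanised share was 18.4% in the ErbBi and 40.4% in the untreated library with a limit of 1%, 9.48% and 19.7% with 3%, 3.45% and 13.2% with 4%, 10.1% and 20.8% with dct left out of the rule, and 5.17% and 12.9% with tyrp1b left out. It stayed within the main intervals in the unfiltered table, without doublets, after thinning, without pmela or tyrp1a, and without shared barcodes. Under each of these settings the ErbBi share was the lower one.

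Counts past the fold over other cells moved to 526 higher and 769 lower (ErbBi) and 1670 lower (untreated) with the mean of per-cell CPM, which needs no interval, to 175 and 30 (ErbBi) with a limit of 4%, and to 162 and 112 (ErbBi) and 678 lower (untreated) with at least 100 UMIs. Over moderately melanised untreated cells they were 361 higher and 189 lower with the per-cell mean and 149 lower with at least 10 UMIs. Over gch2-rich cells they were 996 and 329 with the per-cell mean. Between libraries they were 522 and 452 with the per-cell mean, 33 and 4 with a limit of 4%, 176 higher with at least 10 UMIs and 24 higher after thinning. Higher minimums and limits leave fewer genes or cells, lower minimums leave more genes, and the per-cell mean has no interval condition. Among the results checked, no called gene reversed, nor did a list with a median of at least 2-fold. Lists with smaller medians could not be flagged as reversed. The check covered list genes over other cells and between libraries. Ranked genes were checked in the untreated library and between libraries, and other genes over moderately melanised or gch2-rich cells were not. Per-cell medians, such as those of gch2 above, were not among the alternatives. Over the gene ratios under all alternatives, 5652 kept their status, which includes genes without a call in either setting. Another 442 lost their call or were no longer measured, and 141 gained one. Of the list medians, 643 stayed close to the main value and 22 moved.

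Shares of strongly melanised cells with a UMI were higher without thinning: tyr 75.5% (ErbBi) and 86.3% (untreated), slc45a2 99.6% (untreated), MITF (ENSDARG00000003732) 96.5% (untreated), twist1a 71.4% and 22.8%, pcna 63.3% and 43.2%, and EGFP 57.5% (untreated). The 49 ErbBi cells hold 163602 UMIs against 2105277 in the untreated ones, so ErbBi ratios have wider intervals and fewer genes could pass the fold.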

Other observations

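Among the 219 genes higher past the fold in both libraries, the 15 with the largest lower interval bound, a ranking chosen after the values were seen, include several genes that no list held. tspan36, encoding a tetraspanin, was abundant, with 5802 and 842 CPM in strongly melanised and other ErbBi cells (ratio 6.89, 6.26 to 7.58) and 6486 and 1473 CPM in untreated ones (4.40, 4.28 to 4.53). A second tetraspanin gene, tspan10, had 6.31 (4.71 to 8.48) and 3.87 (3.53 to 4.25). smim18, a small membrane protein gene, had 19.6 (11.5 to 34.6) and 5.31 (4.5 to 6.29), zgc:91968 had 9.89 and 5.2, and si:ch211-195b13.1 had 13.5 and 5.82. slc3a2a, encoding the heavy chain of heteromeric amino acid transporters, had 5.38 (3.92 to 7.37) and 4.2 (3.82 to 4.62), and ctsc, for the lysosomal protease cathepsin C, had 7.32 (4.61 to 11.7) and 3.99 (3.45 to 4.62). mical3b, an actin-oxidising enzyme gene, had 7.90 and 4.38.

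Among the 145 genes lower past the fold in both libraries, the same ranking gave hells (2 and 237 UMIs in the ErbBi library, ratio 0.0506; 0.0883 in the untreated library), the replication protein gene rpa2 (0.196 and 0.197), pclaf, for a clamp-associated factor (0.165 and 0.115), hmgn1a, a nucleosome-binding protein gene (0.202 and 0.255), and ptmab, a prothymosin gene (0.272 and 0.374). The myelin-related gene pmp22a had 0.257 (0.195 to 0.333) and 0.179 (0.159 to 0.200), and the somatostatin gene sst2 had 0.168 and 0.149.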
